A study of Mus musculus with 6 samples.

Results

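The axon and vessel guidance genes were taken as the probes whose annotated symbol begins with Sema and a digit, Plxn, Efna, Efnb, Epha, Ephb, Slit and a digit, Robo, Unc5 or Ntn, or is Nrp1 or Nrp2. This rule found 49 probes of 42 genes, and all 49 had a detection p below 0.05 on 3 arrays or more. The array holds 25697 probes, of which 13361 met that filter and were tested. Symbols were at hand for 12495 probes, all of the authors' processed table, and family members measured by other probes are not analysed here. The samples were lungs of 6 tamoxifen-treated mice. The 3 control mice had the genotype labelled Tmem1002loxP/2loxp, homozygous for a Tmem100 allele with loxP sites. The 3 mutant mice, Tmem1002loxP/2loxP;ROSA26+/CreER, also carried the tamoxifen-activated recombinase CreER at the ROSA26 locus, which is active in most cell types. Both groups were injected with tamoxifen (0.1 mg/g) on 2 successive days and sampled 7 days after. Because CreER and the intended deletion were present together, their effects cannot be told apart. The sources used here do not give age, sex or strain.

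Guidance genes encode ligands and receptors that attract or repel growing axons and, in vessels, the sprouting endothelial cells. Semaphorins act through plexins, the secreted class with neuropilins as co-receptors. Ephrins are membrane-bound ligands of the Eph receptor tyrosine kinases and signal in both directions between touching cells. Slits bind Robo receptors, and netrins bind receptors that include the repulsive Unc5 family. In lung, these families are best known from vessel branching, arterial and venous identity and alveolar formation.

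Median intensities were 363, 352 and 335 on the control arrays and 334, 333 and 339 on the mutant arrays. Each mutant array detected fewer probes (12837, 13046 and 12781) than any control array (13749, 13437 and 13354). The part of this in probes undetected in mutants was not tested. Levels are log2 intensities after background correction and quantile normalization, and a difference is mutant minus control. Each p was adjusted for the number of probes tested, and a gene rose, fell or passed when its adjusted p was below 0.05. Alternatives named beside a gene replaced 1 step: the background correction (normexp, a model fitted without negative controls, or none), the scaling between arrays (medians), the detection filter, the variance model, the weighting of arrays, or the set of mice. Of all probes tested, 26.7% passed, so passing was common in this comparison. Tmem100, an endothelial transmembrane protein gene, had a normalized log2 intensity of 11.16, 15.36 and 10.69 in the 3 controls and 8.44, 9.43 and 9.51 in the 3 mutants. No mutant reached the lowest control, but the log2 difference of -3.28 ± 1.15 (SE) did not pass (adjusted p = 0.0749). Without control mouse 2 it was -1.80 and passed (adjusted p = 0.0283). It was -3.90 without control mouse 1 and -4.13 without control mouse 3, in neither case past the threshold. In the deposited processed values it was -2.58, also not past. The sources used here do not state whether the deletion removes the sequence its probe reads.

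Guidance ligand and receptor genes moved in both directions in mutant lungs. Sema7a, a membrane-anchored semaphorin that also binds integrins, rose most, 3.60-fold, and Sema6b and Sema5a rose 2.401-fold and 1.80-fold. Ntn3, Sema4f, Nrp1, Epha7 and Epha1 were each more than 2-fold lower, and Ephb1 was undetected in mutants. Without background correction only Nrp1 of these 5 stayed more than 2-fold lower (2.13). Sema4f, Ntn3, Epha1 and Epha7 were then 1.92-, 1.67-, 1.63- and 1.22-fold lower. With a single probe per gene (the one with the highest mean over all arrays), 21 of 42 genes (50%) passed, 7 higher and 14 lower, where 27.2% of all 9383 genes passed, 12.7% higher and 14.5% lower. Counted as probes, 25 of 49 passed, 9 higher and 16 lower, where 26.7% of all probes passed, 13.3% higher and 13.5% lower. The median log2 difference of the 42 genes was -0.17, against 0.01 over all genes, and the median absolute difference was 0.48, against 0.31. Of the 22 ligand genes 5 rose and 5 fell, and of the 20 receptor genes 2 rose and 9 fell. Of those 9, 5 were detected on all control arrays but not on all mutant arrays, and of the 13 receptor genes detected on all 6 arrays 2 rose and 4 fell. The groups did not overlap for 27 of the 42 genes (64.3%), against 49.1% of all genes, and for 32 of the 49 probes (65.3%), against 47.5% of all probes. RNA was from lung tissue, so fewer cells of a type and less RNA per cell cannot be told apart.

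**Figure D1:**
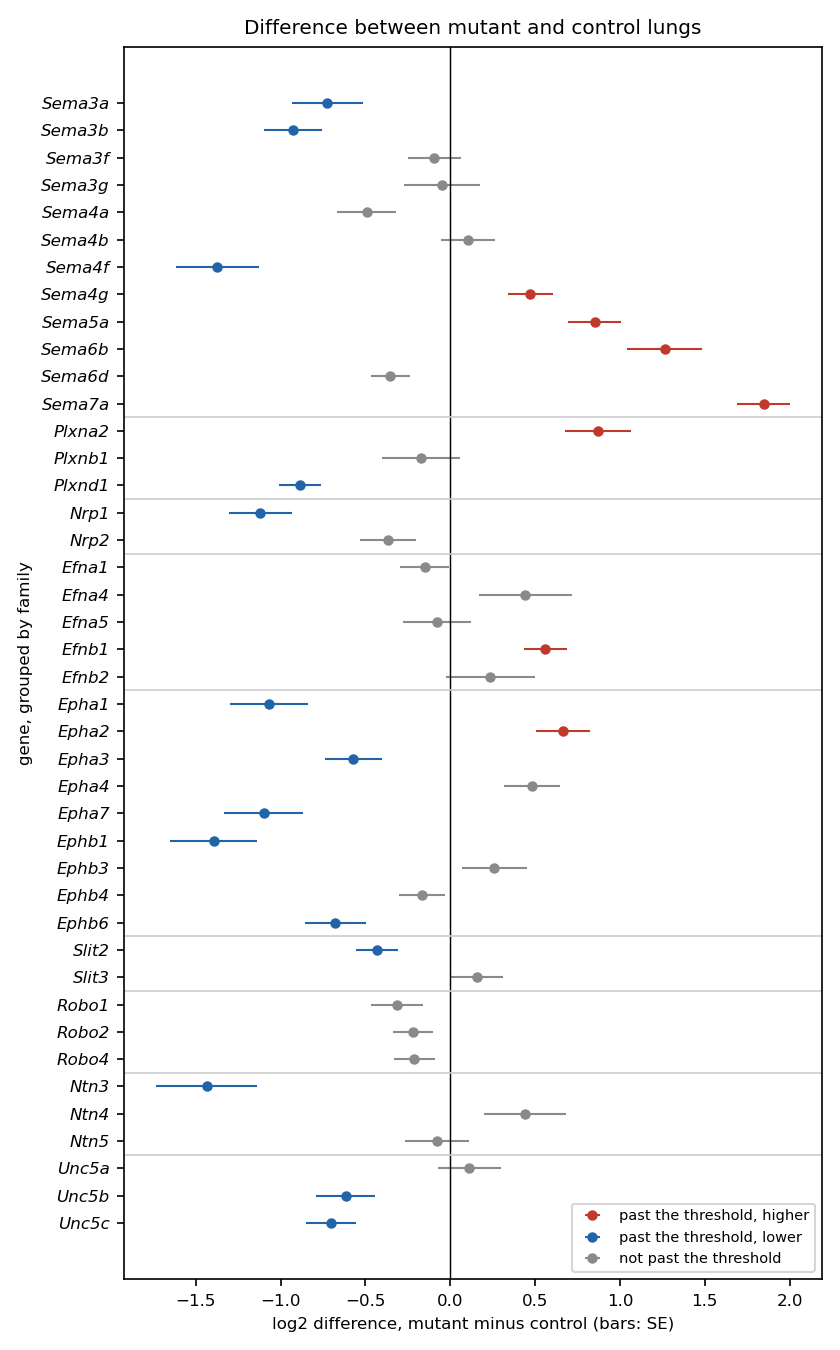
Log2 difference in normalized intensity, mutant minus control, for 42 guidance genes grouped by family (vertical axis), with bars of 1 SE from the fit on 3 mice per group. Of the 12 semaphorin genes 4 rose and 3 fell, and of the 9 Eph receptor genes 1 rose and 5 fell, 3 of them not detected on all arrays. Among all genes 12.7% rose and 14.5% fell.

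The detection filter removed no member probe, but it could remove few, since 12429 of the 12495 probes with a symbol met it. The dimmer member probes were not detected on every array. Of the 49 probes, 38 were detected on all 6 arrays, and among them 9 were higher and 10 were lower. The other 11 were detected on 3 to 5 arrays. Of these, 6 passed, all lower in mutants and detected on all 3 control arrays: the probes of Epha7, Ephb1, Ephb6, Plxnd1 and Unc5b and the dimmer Ntn3 probe. Since a probe bright in controls passes the filter through controls alone, these 6 give no support to the balance of directions. Mutant mouse 3 lay farthest from the control mean for 16 of the 21 genes that passed, mutant mouse 1 for 3 and mutant mouse 2 for 2. In the plot of each mouse against the control mean, its column is the most saturated for Ntn3, Sema4f, Epha7 and Sema7a.

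**Figure D2:**
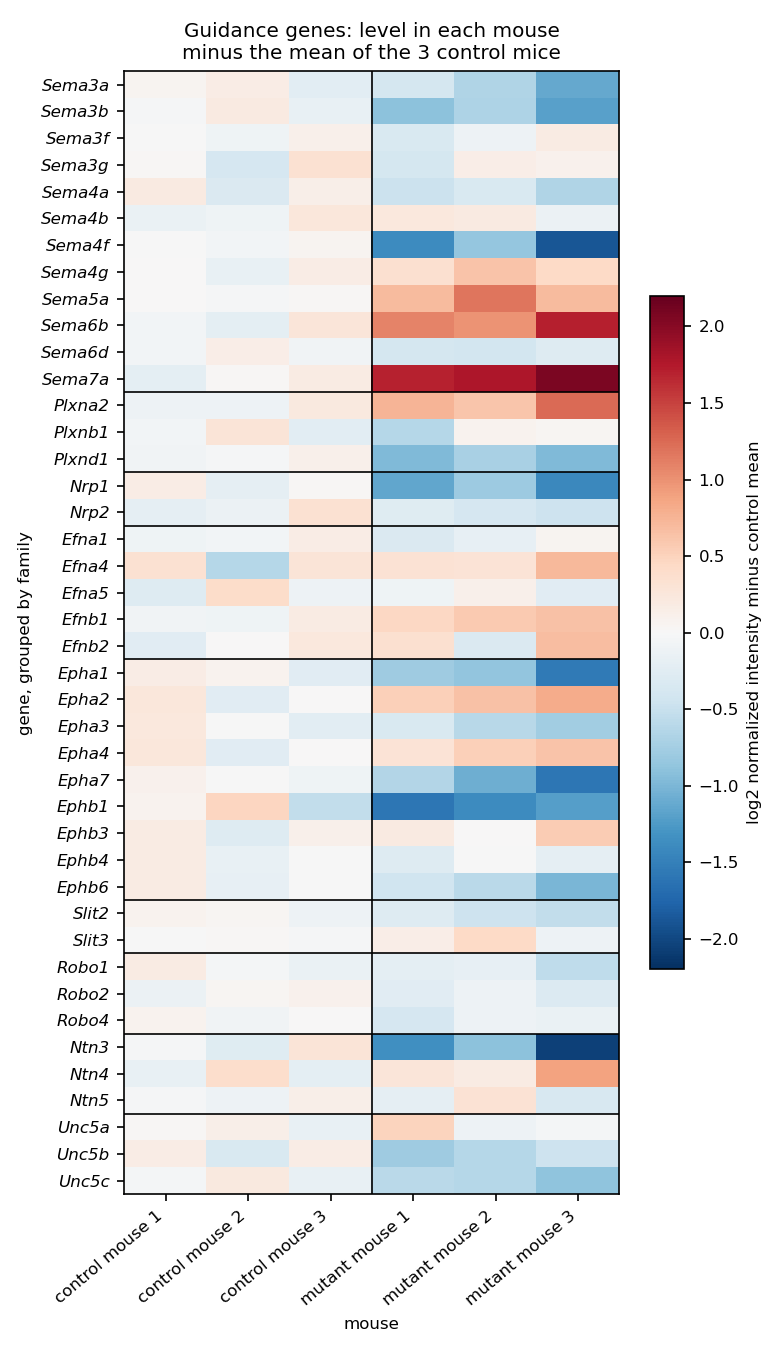
Normalized log2 intensity of each guidance gene in each of the 6 mice (columns) minus the mean of the 3 control mice, with genes in rows grouped by family and red above, blue below that mean. Among mutants the rises of Sema7a and Sema6b and the falls of Nrp1, Sema4f and Ntn3 appear in all 3 mice.

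The promoters of 4 members are shown because these genes carry the rises and falls below: Sema7a and Sema6b rose, and Nrp1 and Unc5c fell. Each line gives the 250 bases before the transcription start from RefSeq on GRCm38.p6, in the direction of the gene. These are chr9:57939862-57940111 (plus strand) for Sema7a, chr17:56140344-56140593 (minus strand) for the upstream start of Sema6b, chr8:128358823-128359072 (plus strand) for Nrp1 and chr3:141465314-141465563 (plus strand) for Unc5c. Capitals mark matches on either strand to any of 5 short motifs: GGCGCC, bound by the BMP-activated SMAD proteins, TGGGAA, bound by the Notch partner RBPJ, GTAAACA, bound by forkhead factors, AGAACA, a glucocorticoid receptor half-site, and CACGTG, an E-box.
Sema7a: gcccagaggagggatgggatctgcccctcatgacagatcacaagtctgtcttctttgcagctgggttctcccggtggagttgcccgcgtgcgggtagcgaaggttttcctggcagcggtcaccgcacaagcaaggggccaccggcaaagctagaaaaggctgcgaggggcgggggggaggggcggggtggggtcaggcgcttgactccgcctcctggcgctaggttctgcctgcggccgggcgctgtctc
Sema6b: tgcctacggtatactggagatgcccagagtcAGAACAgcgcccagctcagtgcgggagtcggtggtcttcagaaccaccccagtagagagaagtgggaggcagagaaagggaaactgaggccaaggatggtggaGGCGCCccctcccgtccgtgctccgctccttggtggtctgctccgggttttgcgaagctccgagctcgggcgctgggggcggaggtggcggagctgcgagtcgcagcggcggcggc
Nrp1: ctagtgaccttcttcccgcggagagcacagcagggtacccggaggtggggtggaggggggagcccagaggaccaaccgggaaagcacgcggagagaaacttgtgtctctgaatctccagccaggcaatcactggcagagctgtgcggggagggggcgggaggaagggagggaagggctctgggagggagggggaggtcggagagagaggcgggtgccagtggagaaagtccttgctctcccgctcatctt
Unc5c: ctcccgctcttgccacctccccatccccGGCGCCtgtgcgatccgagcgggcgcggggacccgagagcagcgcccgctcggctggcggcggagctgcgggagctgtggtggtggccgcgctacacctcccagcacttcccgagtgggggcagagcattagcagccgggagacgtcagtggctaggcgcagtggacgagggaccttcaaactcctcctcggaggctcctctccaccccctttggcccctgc
Sema7a and Nrp1 had no match in this window. Sema6b had AGAACA and GGCGCC, Unc5c had GGCGCC, and no matches overlapped. Of 42 member genes, 40 had a promoter in the RefSeq table, with 50 windows. GGCGCC stood in 10 of the 50 (20%) and in 9.59% of all 32851 windows. Among genes that passed, it stood before Plxna2 and Sema6b, which rose, and before Epha1, Ephb6 and Unc5c, which fell. The other 5 of the 10 windows stood before genes that did not pass: Efna1, Efnb2, Ephb4, Sema4b and Unc5a. TGGGAA stood in 18% of member windows and 21.6% of all, AGAACA in 8% and 16.1%, CACGTG in 6% and 6.02%, and GTAAACA in none and 3.17%. A match describes the letters and is not a measured binding site.

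Membrane-bound semaphorins held the largest rise of any guidance gene measured. These 8 genes, of classes 4 to 7, act by contact between cells. Of them 4 rose and 1 fell, where 12.7% of all genes rose and 14.5% fell. Sema7a had log2 intensities of 10.42, 10.67 and 10.83 in the controls and 12.34, 12.41 and 12.70 in the mutants. Every mutant exceeded every control by more than the spread within either group, and the log2 difference was 1.85 ± 0.16 (SE; adjusted p = 0.00264, limma). Sema6b, a ligand of A-type plexins, read 8.54, 8.39 and 8.87 in controls and 9.69, 9.60 and 10.31 in mutants. The groups were apart, with a difference of 1.26 ± 0.22 (adjusted p = 0.00915), and the second Sema6b probe gave 1.32 ± 0.22. Sema5a, which carries thrombospondin repeats, read 11.16, 11.12 and 11.18 in controls and 11.85, 12.33 and 11.84 in mutants. Its controls lay within 0.1 of each other, the difference was 0.85 ± 0.16 (adjusted p = 0.0105), and its second probe gave 0.84 ± 0.14.

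Sema4f, a class 4 transmembrane semaphorin, went the other way. Its log2 intensity was 10.03, 9.96 and 10.10 in controls and 8.64, 9.18 and 8.15 in mutants. The mutants were more scattered than the controls but all lower, and the difference was -1.37 ± 0.25 (2.59-fold lower, adjusted p = 0.00968). Sema4g rose by 0.47 ± 0.13 (adjusted p = 0.0402), a call kept in 2 of 14 alternatives. It ended on leaving out control mouse 1 (adjusted p = 0.112), control mouse 2 (0.110), or mutant mouse 1 (0.0684), 2 (0.111) or 3 (0.0683), with every other background correction or scaling and the deposited processed values (0.0906 to 0.211), with a variance trend (0.0888) and with no detection filter (0.0623). Sema4a, which acts on T cells and binds plexin D1, and Sema6d, known from heart development, were lower by 0.49 ± 0.17 and 0.35 ± 0.12 and did not pass (adjusted p = 0.0743 and 0.0621). Sema4a passed without control mouse 2 (adjusted p = 0.0353), without background correction (0.0444), with normexp (0.0474), with array weights (0.0251) and when the variance followed a trend (0.0382). Sema6d passed without background correction (0.0434), with median scaling (0.0445), with the stricter detection filter (0.0423) and with array weights (0.0286). Sema4b differed by 0.11 ± 0.16.

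Of the secreted class 3 semaphorins, 2 of 4 fell and none rose, where 14.5% of all genes fell and 12.7% rose. Sema3b, a repellent that binds neuropilins, read 9.05, 9.27 and 8.90 in controls and 8.17, 8.39 and 7.88 in mutants. The groups did not overlap, and the gene was 1.90-fold lower (log2 -0.93 ± 0.17, adjusted p = 0.0102). Sema3a, the classic ligand of neuropilin 1, read 10.08, 10.18 and 9.79 in controls and 9.62, 9.36 and 8.89 in mutants. Its groups lay close together, with a difference of -0.72 ± 0.21 (adjusted p = 0.0425). That call ended when leaving out control mouse 1 (adjusted p = 0.123), control mouse 2 (0.119), mutant mouse 2 (0.0834) or 3 (0.0712), and with no detection filter (0.0654). Sema3f, a ligand of neuropilin 2, differed by -0.09 ± 0.16 on its brighter probe and -0.09 ± 0.19 on the other. Sema3g, known from arterial endothelium, differed by -0.05 ± 0.22, with a 95% interval of -0.58 to 0.48.

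Among semaphorin receptors, Nrp1 and Plxnd1 fell and Plxna2 rose. Neuropilin 1, encoded by Nrp1, is a co-receptor for both secreted semaphorins and VEGF-A. Its brighter probe read 14.14, 13.78 and 14.01 in controls and 12.83, 13.18 and 12.56 in mutants, and its other probe 13.86, 13.64 and 13.82 in controls and 12.63, 12.76 and 12.37 in mutants. On both probes every mutant lay below every control. The differences were -1.12 ± 0.19 (2.17-fold, adjusted p = 0.00793) and -1.18 ± 0.14 (2.27-fold, adjusted p = 0.00369). Nrp2, the co-receptor for Sema3f and VEGF-C, was detected on all 3 control arrays and no mutant array. Its log2 values were 5.91, 5.99 and 6.45 in controls and 5.84, 5.74 and 5.67 in mutants. It was at least 1.01-fold lower, by the lowest detected signal on the mutant arrays, and did not pass (adjusted p = 0.14).

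Plxnd1 encodes the plexin of endothelial cells that receives Sema3e. Its probe was detected on 1 mutant array, and its log2 values were 6.87, 6.94 and 7.06 in controls and 5.99, 6.24 and 5.99 in mutants. The groups were clearly separate, with a difference of -0.89 ± 0.12 (1.85-fold, adjusted p = 0.0053). The size depended on background correction: without it the gene was 1.18-fold lower, and in the deposited processed values 1.16-fold lower and no longer past the threshold (adjusted p = 0.0922). Plxna2, a receptor of class 3 and class 6 semaphorins, read 10.78, 10.78 and 11.10 in controls and 11.64, 11.49 and 12.14 in mutants. It rose 1.83-fold (log2 0.87 ± 0.20, adjusted p = 0.0193), but not past the threshold without control mouse 1 (adjusted p = 0.0710) or 2 (0.0622). Plxnb1, a receptor of class 4 semaphorins, differed by -0.17 ± 0.23.

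**Figure D3:**
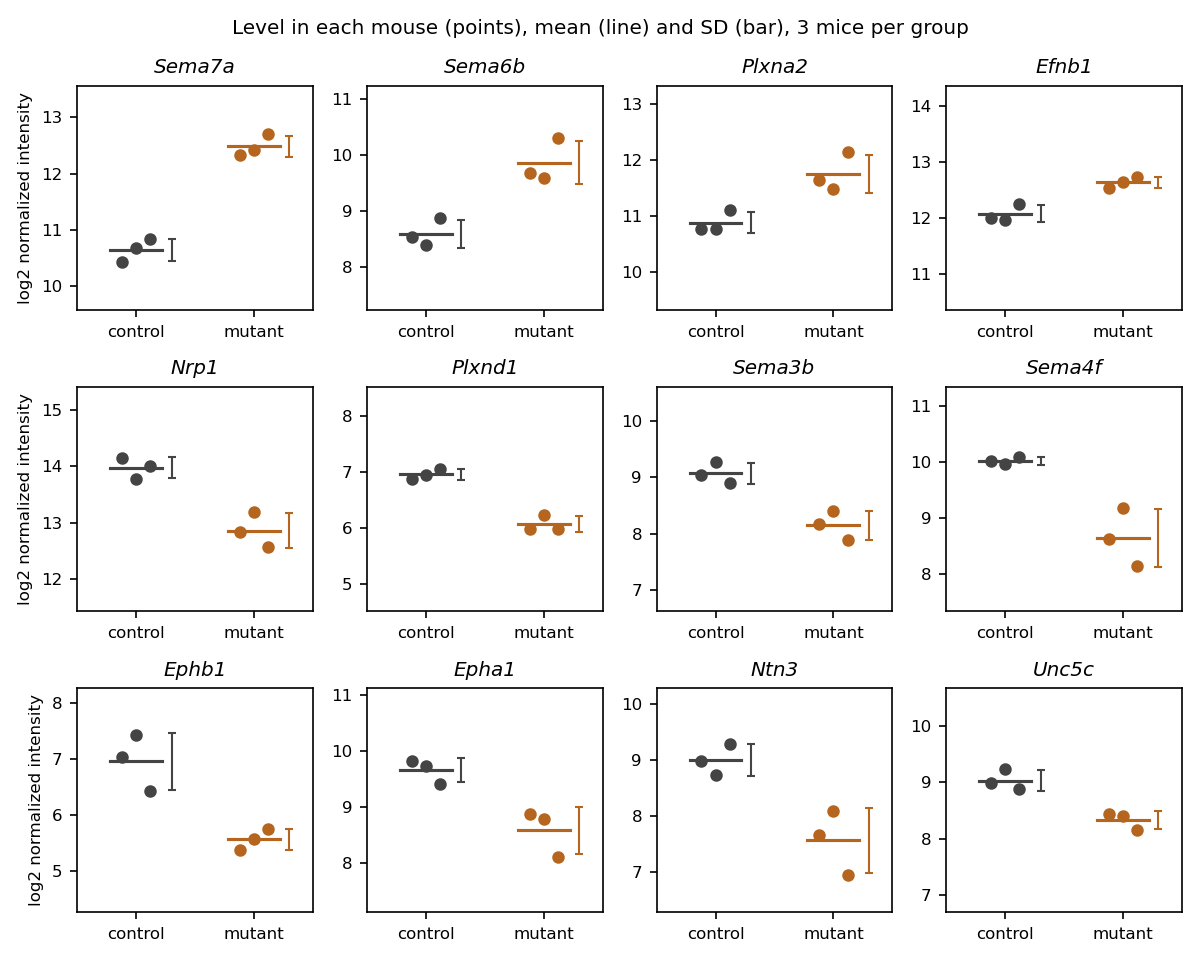
Normalized log2 intensity (vertical axes, each spanning the same range) of 12 guidance genes in each mouse, with group means as lines and SDs as bars, 3 mice per group. In all 12 panels the groups are apart, by 1.85 between means for Sema7a and by 0.56 for Efnb1. The 12 were picked from the 21 genes that passed, none with overlapping groups, so their separation followed from the choice. Of all genes, 49.1% had groups that did not overlap.

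Of 5 ephrin genes 1 rose and none fell, where 12.7% of all genes rose and 14.5% fell. Of 9 Eph receptor genes 1 rose and 5 fell, and of the 6 detected on all arrays 1 rose and 2 fell. Efnb1, a transmembrane ephrin, read 12.002, 11.97 and 12.25 in controls and 12.54, 12.65 and 12.73 in mutants. It was 1.47-fold higher (log2 0.56 ± 0.13, adjusted p = 0.019), with the call lost when leaving out control mouse 1 (adjusted p = 0.0738), control mouse 2 (0.0601) or mutant mouse 2 (0.0537). Efnb2 and Ephb4 mark arteries and veins as a ligand and receptor pair, and neither passed. Efnb2 differed by 0.24 ± 0.26 (95% interval -0.38 to 0.86) and Ephb4 by -0.17 ± 0.14 (-0.49 to 0.16). The membrane-anchored ephrins Efna1, Efna4 and Efna5 differed by -0.15 ± 0.14, 0.44 ± 0.28 and -0.08 ± 0.20, without passing.

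The EphA receptors, which bind the membrane-anchored ephrins, split into 3 lower and 1 higher. Epha1 read 9.83, 9.73 and 9.42 in controls and 8.87, 8.79 and 8.11 in mutants on its brightest probe. That probe was 2.10-fold lower (log2 -1.07 ± 0.23, adjusted p = 0.0162). The other 2 Epha1 probes were lower by 0.66 and 1.00 without passing (adjusted p = 0.0568 and 0.0807). The call of the brightest ended without control mouse 1 (adjusted p = 0.0630) or 2 (0.0531). Epha7 was detected on 1 mutant array and read 6.98, 6.87 and 6.78 in controls and 6.23, 5.81 and 5.29 in mutants, a difference of -1.10 ± 0.23 (adjusted p = 0.0157). It was 1.22-fold lower without background correction and 1.25-fold lower in the deposited processed values, and did not pass without control mouse 1 (adjusted p = 0.0602). Epha3 fell by 0.57 ± 0.17 (adjusted p = 0.0462). It did not pass when leaving out control mouse 1 (adjusted p = 0.142), control mouse 2 (0.105), mutant mouse 1 (0.0501), 2 (0.110) or 3 (0.105), without background correction (0.0574), with the deposited processed values (0.0673) or with no detection filter (0.0714).

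Epha2, a receptor of Efna1 known from tumour angiogenesis, was the Eph gene that rose. It read 8.45, 7.94 and 8.20 in controls and 8.73, 8.84 and 9.01 in mutants, and was 1.58-fold higher (log2 0.66 ± 0.16, adjusted p = 0.0237). The call ended with median scaling (adjusted p = 0.0653) and when leaving out control mouse 2 (0.0628), control mouse 3 (0.0549), mutant mouse 2 (0.0589) or 3 (0.0573). Epha4, which binds both ephrin classes, differed by 0.48 ± 0.16 without passing (adjusted p = 0.0683). Its groups were just apart, with the highest control at 6.86 and the lowest mutant at 6.91.

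Of the EphB receptors, which bind the transmembrane ephrins, 2 of 4 fell, where 14.5% of all genes fell. Ephb1 was detected on all control arrays and no mutant array, at 7.03, 7.42 and 6.42 in controls and 5.38, 5.57 and 5.74 in mutants. With the background correction used here it was at least 1.82-fold lower (adjusted p = 0.0102), a bound set by the lowest detected signal on the mutant arrays. That bound does not hold for other corrections, under which the fitted fold was 1.64 with normexp, 1.30 without background correction and 1.26 in the deposited processed values, where it did not pass (adjusted p = 0.0781). Ephb6, whose kinase domain is inactive, fell by 0.68 ± 0.18 (adjusted p = 0.0321), a call kept in 6 of 14 alternatives. It ended without control mouse 1 (adjusted p = 0.109), 2 (0.0510) or 3 (0.0702) or mutant mouse 2 (0.0634) or 3 (0.0544), with normexp (0.0551), without background correction (0.100) and in the deposited processed values (0.141). Ephb3 differed by 0.26 ± 0.19.

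Slit and Robo genes showed small differences. Slit2, a secreted repellent, read 10.96, 10.93 and 10.77 in controls and 10.60, 10.43 and 10.34 in mutants. It was 1.35-fold lower (log2 -0.43 ± 0.12, adjusted p = 0.0408), but the call ended when any single mouse was left out (adjusted p = 0.0502 to 0.131). It also ended with median scaling (0.0730) and with no detection filter (0.0633). Slit3 differed by 0.16 ± 0.16. Robo4, the Robo receptor of endothelial cells, read 13.16, 13.01 and 13.09 in controls and 12.71, 12.98 and 12.94 in mutants. Every mutant was slightly lower, but the difference of -0.21 ± 0.12 (95% interval -0.50 to 0.07) did not pass (adjusted p = 0.229). Robo1 and Robo2, receptors of Slits on axons and in lung tissue, differed by -0.31 ± 0.16 and -0.22 ± 0.12 (adjusted p = 0.173 and 0.206). None of the 3 Robo genes passed in any of their alternatives.

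Ntn3 was the netrin gene that changed, and 2 of 3 Unc5 receptor genes fell, where 14.5% of all genes fell. Ntn3, a relative of the axon attractant netrin 1, read 8.98, 8.73 and 9.28 in controls and 7.65, 8.09 and 6.94 in mutants. The mutants were scattered but all lower, and the difference was -1.44 ± 0.30 (2.71-fold, adjusted p = 0.0149). The dimmer Ntn3 probe, detected on 1 mutant array, gave -1.63 ± 0.31. The fold was 1.67 without background correction and in the deposited processed values, and the call ended without control mouse 1 (adjusted p = 0.0533). Ntn4, a netrin of basement membranes, was detected on 1 control array and 3 mutant arrays and differed by 0.44 ± 0.24 without passing (adjusted p = 0.213). Ntn5 differed by -0.08 ± 0.19.

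Unc5c read 8.98, 9.24 and 8.88 in controls and 8.44, 8.40 and 8.15 in mutants. It was 1.63-fold lower (log2 -0.70 ± 0.15, adjusted p = 0.0151), narrowly missing the threshold without control mouse 1 (adjusted p = 0.0517). Unc5b, the netrin receptor of sprouting vessels and arteries, read 6.94, 6.44 and 6.93 in controls and 5.99, 6.15 and 6.32 in mutants. The difference was -0.62 ± 0.17 (adjusted p = 0.0401), but the lowest control lay close to the highest mutant, and the call was kept in 4 of 14 alternatives. It ended when leaving out control mouse 1 (adjusted p = 0.130), control mouse 3 (0.101), mutant mouse 1 (0.117) or 2 (0.0917), without background correction (0.122), with normexp (0.0694), with a variance trend (0.0621), with no detection filter (0.0619) and in the deposited processed values (0.282). Unc5a differed by 0.11 ± 0.19.

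Leaving out single mice ended some calls and left others, with the tested probes still those chosen on all 6 mice. Of the 21 genes that passed, 8 still passed with any single mouse left out: Sema7a, Plxnd1, Nrp1, Sema6b, Sema4f, Ephb1, Sema3b and Sema5a. Among these, Ephb1 was detected on no mutant array and Plxnd1 on 1, and both lost their calls in the deposited processed values. The number of genes that passed was 9 without control mouse 1, 13 without control mouse 2, 17 without control mouse 3, and 17, 13 and 15 without mutant mouse 1, 2 and 3. All genes together also passed less often, at 12.4%, 16% and 23.4% without control mouse 1, 2 and 3. Without mutant mouse 1, 2 and 3 the shares were 16.1%, 20.2% and 23.2%. Of the 21 genes, 6 passed under every alternative of normalization, filter, model and mouse: Sema7a, Sema6b, Sema5a, Sema4f, Sema3b and Nrp1.

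**Figure D4:**
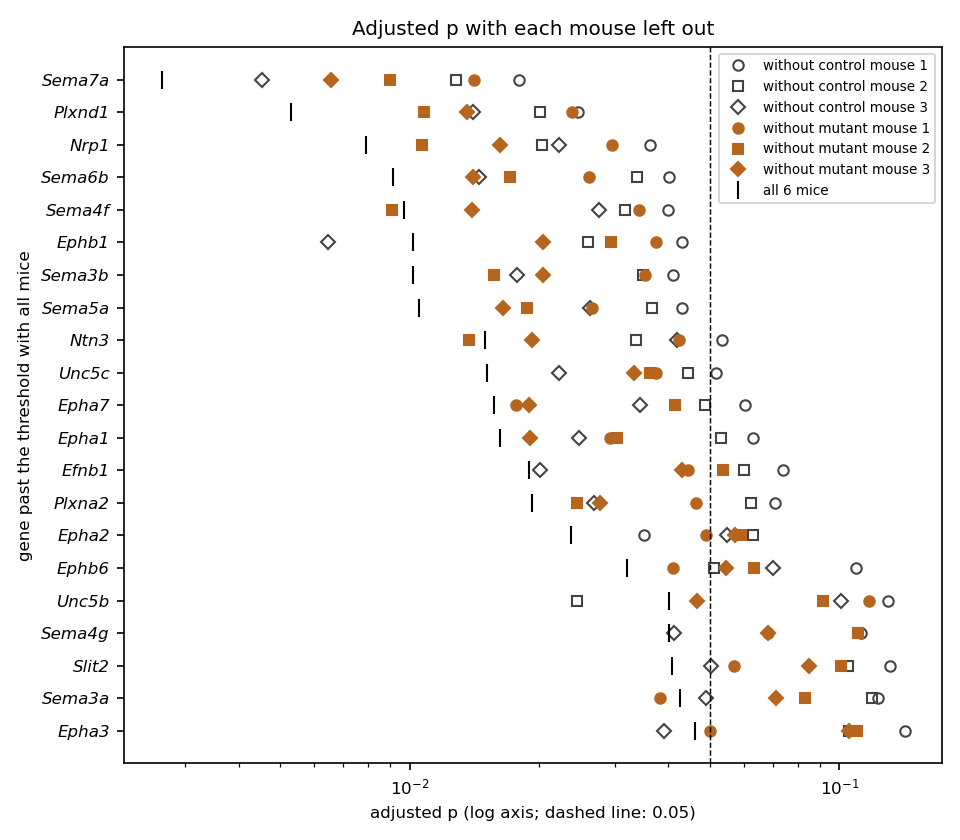
Adjusted p (horizontal log axis) of the 21 guidance genes past the threshold, with all 6 mice (bars) and with each mouse left out (symbols), and the threshold of 0.05 as a dashed line. The upper 8 genes stay left of the line throughout, and the lower 13 cross it without at least 1 mouse.

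Co-receptors and cytosolic effectors of these pathways moved in both directions. Of 50 genes listed, 29 were measured, and 6 rose and 5 fell (37.9%, where 27.2% of all genes passed), with a median log2 difference of 0.01. That total of 11 dropped to 3 on leaving out control mouse 1, to 7 for control mouse 2, and to 6 and 7 for mutant mice 1 and 2. The shares of all genes in the same fits were 12.4%, 16%, 16.1% and 20.2%. Dpysl3, of the collapsin response family that relays semaphorin signals to the cytoskeleton, read 9.72, 9.78 and 9.58 in controls and 8.30, 8.60 and 7.81 in mutants, a fall of 1.46 ± 0.20 (adjusted p = 0.00528). Its relative Dpysl5 read 8.61, 7.74 and 9.14 in controls and 9.996, 9.96 and 9.86 in mutants, and rose by 1.44 ± 0.32 (adjusted p = 0.0193). That call ended without control mouse 1 (adjusted p = 0.0581) or mutant mouse 1 (0.0582) or 2 (0.0516). Cfl1, the actin-severing protein cofilin, rose by 1.28 ± 0.17 (adjusted p = 0.00501).

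Among regulators of the actin cytoskeleton, Tiam1 fell by 0.97 ± 0.22 (adjusted p = 0.0202), but not past the threshold without control mouse 1 (0.0634) or 2 (0.0650). Mical3, of the actin-oxidising MICAL family, rose by 0.97 ± 0.21 (adjusted p = 0.0173). It was 1.23-fold higher without background correction and 1.16-fold in the deposited processed values, where it did not pass (0.103), nor did it without control mouse 1 (0.0583). Ngef, the EphA-bound exchange factor ephexin, rose by 0.80 ± 0.24 (adjusted p = 0.045), a call kept in 7 of 15 alternatives. It ended when leaving out control mouse 1 (0.134), control mouse 2 (0.121), mutant mouse 1 (0.118) or 2 (0.115), with median scaling (0.0618), with no detection filter (0.0693) and in the deposited processed values (0.128).

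Markers of several cell types that express guidance genes moved with the groups. Beside the marker counts given here and below, 12.7% of all genes were higher and 14.5% lower. The summed level of 13 endothelial markers was 95.02 to 104% of the control mean in controls and 82.1 to 91.1% in mutants, with 7 of 13 lower and 1 higher. The 7 lower ones ranged from Cdh5 (-0.53 ± 0.15) to Emcn (-1.16 ± 0.22), and Flt1 was higher by 0.69 ± 0.12. Pecam1, a defining endothelial marker, was among the 5 that did not pass (-0.03 ± 0.12). The list's Kdr, Cldn5 and Erg are not analysed here. The 8 arterial markers summed to 87.8 to 110% in controls and 35.7 to 44.3% in mutants, with 7 lower. The sum of 10 smooth muscle and pericyte markers was 85.3 to 116% against 40.6 to 53.0% (7 lower), and that of 10 fibroblast markers 85.6 to 114% against 60.8 to 63.2% (8 lower). Mesothelial markers summed to 86.1 to 126% against 35.7 to 56.3%, with 3 of 4 lower. Of 6 lymphocyte markers 4 were lower, with sums of 90.7 to 116% and 59.5 to 69.6%. Their part in the differences of the guidance genes was not tested.

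The sums of the epithelial, macrophage and nerve lists overlapped between groups. Those of the venous, lymphatic, cardiac, skeletal muscle and fat cell lists were lower in every mutant than in any control. The lymphatic sums were barely apart, and sums weigh bright markers most. The median log2 difference was 0.30 for the 5 lymphatic markers and -0.12 for the 6 venous ones. Alveolar type 1 markers summed to 97.7 to 103% in controls and 98.2 to 102% in mutants, alveolar type 2 markers to 88.0 to 106% and 78.5 to 103%, and airway markers to 98.7 to 101% and 92.9 to 99.3%. None of these 16 epithelial markers passed. Cyp2f2 and Scgb1a1 made up at least 95.8% of the airway sum and read 15.80 or more in every mouse, close to the highest value on the arrays, 15.99, so that sum could show little change. Macrophage markers summed to 82.5 to 113% and 97.8 to 126%, with 1 of 4 lower. Venous markers gave 87.8 to 112% and 72.2 to 82.0% (1 of 6 lower) and lymphatic markers 97.1 to 103% and 66.6 to 97.0% (1 of 5 higher, 1 lower). Cardiac markers gave 68.9 to 146% and 27.2 to 52.0% (3 of 6 lower), the 2 skeletal muscle markers 57.4 to 128% and 10.6 to 25.5% (both lower), and the 2 fat cell markers 15.7 to 239% and 10.5 to 12.1% (1 lower). Of nerve and Schwann cell markers, 2 of 9 were measured, Mbp and Ngfr, and neither passed, with sums of 84.0 to 111% and 110 to 146%. The other 7 are not analysed here.

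**Figure D5:**
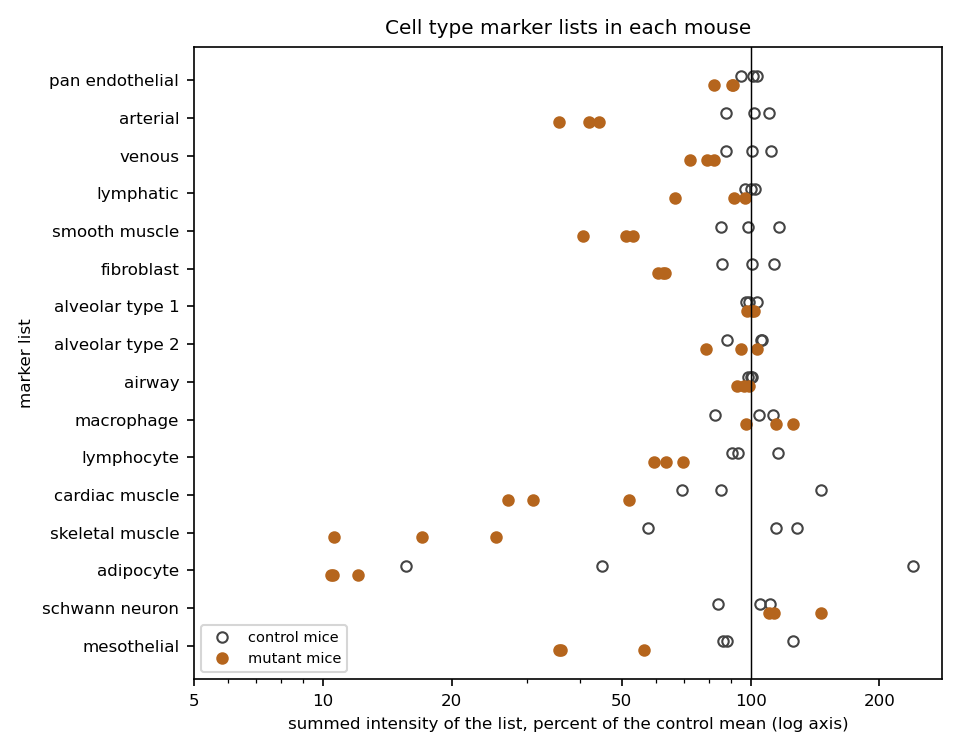
Summed normalized intensity of each cell type marker list in each mouse, as a percent of the mean of the 3 control mice (horizontal log axis), open points for controls and filled points for mutants. The 2 alveolar lists and the airway, macrophage and nerve lists overlap between groups. In every other list all 3 mutants lie below all controls, narrowly for the lymphatic list.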

How the data were processed

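Lung RNA of 6 mice (550 ng each) was made into biotin cRNA and measured on Illumina bead arrays, 1 per mouse, per the labels' protocols. The deposited table of unnormalized values, per the file headers, holds an intensity and a detection p-value for every probe and array. The submitters' processing notes list GenomeStudio 2009.2 and R 2.4.1 but no role for either, and whether background was subtracted is not stated in the sources used here. The authors' processed table holds log2 values of 13261 probes. In it mutant mouse 1 equals mutant mouse 2 at every probe and matches the intensities of the latter, so it was an alternative with 2 distinct mutants.

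Normalization used limma 3.58.1 (R 4.3.3) and its neqc function (negative controls inferred from detection p-values, offset 16, quantile, log2). The 13361 probes with detection p below 0.05 on at least 3 arrays were compared between mutants and controls with lmFit and eBayes, with Benjamini-Hochberg adjustment over all of them. The mice are separate animals. Each ± after a log2 difference is the standard error from that fit, 3 mice per group. Arrays have no read depth, and their number limits the precision. Symbols come from the platform annotation, updated by Entrez identifier through RefSeq for 12490 of 12495 probes, and 932 tested probes have none here. A fold is a bound where a probe was undetected throughout a group. Fitting was tested on simulated data. Alternatives were other background corrections, scalings, filters and variance models, array weights, a replicate block, the deposited log2 values, and each mouse left out.

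The members and lists were chosen with earlier results of these data known, so no list was tested as a set. Genes named are Tmem100, every member past the threshold, the 2 with the lowest p and the brightest of each family otherwise, known vessel pairs, and the 6 effectors with the largest change among those past the threshold. Sema4b, Efna5, Pecam1, Cdh5, Emcn, Flt1, Mbp, Ngfr, Cyp2f2, Scgb1a1 and Reln were added after their values were seen. Mouse numbers did not pair the mice (correlation of same-numbered deviations from group means -0.09, -0.01 and -0.04).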

Additional observations from a re-analysis of the deposited data

How the results depend on the processing

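The 6 calls named above as kept everywhere covered 15 alternatives each, and no called guidance gene changed sign. Genes that passed numbered 19 with normexp, without background correction or with median scaling, where 30.2%, 31% and 24.3% of all genes passed. With a variance trend 20 passed (30.9% of all genes). They numbered 23 when arrays were weighted (37.8% of all genes) and 21 when probes of a gene were averaged. Without the filter 16 passed (21.3% of all genes), as with the stricter one (32.7%), which tested 28 of the 42. With the deposited processed values 9 genes fell, against 14, and 15 passed (20.3% of all genes). With the mouse number as a replicate block, which does not pair these mice, 17 genes passed (20.2% of all genes). The calls of Sema4g (adjusted p = 0.0914), Epha2 (0.0534), Slit2 (0.0682) and Unc5b (0.063) ended there, as did that of the effector Ngef (0.0958). Of the effectors 3 rose under the block, as without the filter, against 6. With 1 mouse left out, 13 to 23 probes passed (5 to 8 higher, 7 to 15 lower) and 9 to 17 genes (3 to 6 higher, 5 to 11 lower). In those fits 12.5% to 23% of all probes and 12.4% to 23.4% of all genes passed. Effectors that passed then numbered 3 to 11 (1 to 5 higher, 2 to 6 lower). Signs reversed near 0, none past the threshold. With the processed values Plxnb1, Sema3f and Sema3g gave 0.012, 0.028 and 0.063, and with array weights Ntn5 gave 0.0072. With 1 mouse left out, Ntn5 ranged from -0.27 to 0.059, Plxnb1 from -0.29 to 0.055, Sema3f from -0.23 to 0.030, Sema3g from -0.23 to 0.12 and Unc5a from -0.077 to 0.23. The causes were not tested. Every guidance gene that passed had a smaller fold without background correction. The change was slight for Nrp1 (2.17 to 2.13) and larger for Sema4f (2.59 to 1.92), Ephb6 (1.60 to 1.13) and Unc5b (1.53 to 1.12). Folds of Plxnd1, Epha7, Ephb1, Ntn3 and Mical3 were then 1.18, 1.22, 1.30, 1.67 and 1.23. Signal near background leaves Ephb1 and Nrp2 with bounds.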

Other observations

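Some members lie close together in the RefSeq gene order of GRCm38.p6. Sema3b and Sema3f have 3 protein-coding genes between them, and their log2 differences were -0.93 and -0.09. Efna1 and Efna4, with 1 coding gene between them, differed by -0.15 and 0.44, and Robo1 and Robo2, with none between them, by -0.31 and -0.22. The differences between neighbours were not tested.

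Of the 42 genes, 6 had more than 1 probe, and probes of a gene gave the same sign in each. For Nrp1, Ntn3, Sema5a and Sema6b both probes passed, for Sema3f neither passed, and for Epha1 1 of 3 passed. Reln, which encodes the neuronal positioning protein reelin and was listed as a lymphatic marker, was singled out after its value was seen: it rose by 1.55 ± 0.15 on the log2 scale (adjusted p = 0.00268).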
